A study of Mus musculus with 10 samples.

Results

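Open chromatin around 8 megakaryocyte and platelet genes was followed in mouse erythroid cells while the transcription factor GATA1 was switched on. The genes were the platelet chemokines Pf4 and Ppbp, the integrin subunits Itga2b and Itgb3, the von Willebrand factor receptor subunits Gp1bb and Gp9, and the adhesive proteins Vwf and Thbs1, 8 of 21851 protein-coding genes in the GENCODE M21 annotation of mm10. They were chosen by name as genes of this lineage, and the rule uses no measured value. Earlier results of these data were known when they were chosen. Every peak summit from 50 kb upstream to 50 kb downstream of each gene span was collected, which gave 26 of the 28981 open regions of the whole series.

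The cells were G1E-ER4, a subclone of the Gata1-null G1E line that constitutively carries GATA1 fused to the ligand-binding domain of the estrogen receptor. The loss of Gata1, the transgene and a medium with SCF and erythropoietin were common to all groups. Accessible DNA was tagged with Tn5 transposase (ATAC-seq) in about 50000 cells per library. Untreated cells (0 h) were set beside cells kept for 2, 6, 12 or 24 h with 1e-07 M β-estradiol, and each of the 5 groups had 2 libraries. The study describes the ATAC-seq replicates of each time point as independent experiments, and the labels give only their numbers. The line is a subclone of the erythroid lineage, and no megakaryocyte library was among the 10.

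Megakaryocytes and red cells arise from a shared progenitor, and GATA1 acts in both with partners such as FOG1, TAL1 and RUNX1. In platelets, products of the genes studied here take part in the arrest of bleeding, though it is not the only role of each, Pf4 and Ppbp being chemokines. GPIb-IX-V, to which Gp1bb and Gp9 contribute, catches von Willebrand factor on a damaged vessel wall, the αIIbβ3 integrin built by Itga2b and Itgb3 then binds fibrinogen and links platelets together, and α-granules release Pf4, Ppbp and thrombospondin. They are used as markers of the megakaryocyte branch.

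Each library had its own list of peak summits with a score, read here as the −log10 of the q-value in that library. The lists held 10698 to 19859 summits, and median scores were 5.68 to 6.48 in the replicate 1 lists and 6.73 to 7.68 in the replicate 2 lists. The lists hold no read totals, so depth is unknown and an unlisted region means only that no peak was called there. Scores are not scaled between libraries and were therefore compared as percentiles within a list. Of 10 erythroid marker genes, 8 had a promoter summit in at least 1 library, Tfrc (the transferrin receptor) being listed in all 10, whereas Slc4a1 and Alas2 had none, and 44.0% of all protein-coding genes had one in at least 1 library. None of 7 lymphoid or 5 hepatocyte marker genes had one in any library, nor did 56.0% of all genes.

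The sequences that carry the results come first. Regions are named by the nearest member and the distance of the median summit from its start, negative when upstream. The 201 bases centred on the median summit, on the plus strand of GRCm38 (mm10), are printed for the 5 always-listed regions that are distal and not beside Slc25a39, for the 2 regions gained after β-estradiol, and for the region of Itgb3 listed most often. Capitals mark motif matches on either strand. The GATA motif was AGATAA, with TGATAA as its other spelling. The ETS motif was AGGAAG, and CGGAAG was also accepted. The RUNX motif was written as TGTGGT. For the E-box, CAGCTG was searched together with CAGATG. The AP-1 motif was spelled TGACTCA, and CTCF was searched by its consensus.
Pf4 +3.3 kb, chr5:90775724-90775924: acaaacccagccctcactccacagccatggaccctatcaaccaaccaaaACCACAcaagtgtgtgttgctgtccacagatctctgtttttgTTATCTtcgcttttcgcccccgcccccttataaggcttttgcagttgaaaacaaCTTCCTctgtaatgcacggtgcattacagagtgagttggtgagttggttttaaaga
Ppbp -26.3 kb, chr5:90742138-90742338: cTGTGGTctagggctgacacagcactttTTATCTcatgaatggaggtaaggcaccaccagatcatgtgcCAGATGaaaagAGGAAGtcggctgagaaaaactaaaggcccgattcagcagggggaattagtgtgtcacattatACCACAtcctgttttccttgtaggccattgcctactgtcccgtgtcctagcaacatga
Gp9 -2.0 kb, chr6:87775937-87776137: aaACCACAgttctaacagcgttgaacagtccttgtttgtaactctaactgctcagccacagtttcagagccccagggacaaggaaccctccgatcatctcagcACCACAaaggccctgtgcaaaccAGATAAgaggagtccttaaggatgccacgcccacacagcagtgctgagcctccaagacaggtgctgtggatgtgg
Gp9 -14.5 kb, chr6:87763443-87763643: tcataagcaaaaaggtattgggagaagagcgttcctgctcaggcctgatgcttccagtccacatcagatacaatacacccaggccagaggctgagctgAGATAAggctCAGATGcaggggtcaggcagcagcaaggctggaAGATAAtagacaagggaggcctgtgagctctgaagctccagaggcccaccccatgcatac
Itga2b +2.6 kb, chr11:102467150-102467350: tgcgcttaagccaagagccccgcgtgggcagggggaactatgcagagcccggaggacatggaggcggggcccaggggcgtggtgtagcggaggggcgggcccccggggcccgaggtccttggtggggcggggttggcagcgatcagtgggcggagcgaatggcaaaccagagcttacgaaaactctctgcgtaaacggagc
Itga2b -17.3 kb, chr11:102487082-102487282: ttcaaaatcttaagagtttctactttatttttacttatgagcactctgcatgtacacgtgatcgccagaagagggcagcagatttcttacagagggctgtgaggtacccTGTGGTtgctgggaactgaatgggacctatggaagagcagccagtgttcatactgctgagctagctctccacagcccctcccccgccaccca
Itgb3 -17.7 kb, chr11:104590155-104590355: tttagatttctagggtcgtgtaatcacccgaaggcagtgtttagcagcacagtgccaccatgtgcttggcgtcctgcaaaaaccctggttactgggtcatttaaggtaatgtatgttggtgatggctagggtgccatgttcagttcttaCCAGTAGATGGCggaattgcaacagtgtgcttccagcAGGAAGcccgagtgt
Itgb3 +53.5 kb, chr11:104661411-104661611: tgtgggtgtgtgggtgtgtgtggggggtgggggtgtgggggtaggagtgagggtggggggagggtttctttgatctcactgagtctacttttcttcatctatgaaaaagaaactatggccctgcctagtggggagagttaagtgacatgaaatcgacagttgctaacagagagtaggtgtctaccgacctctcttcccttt

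The 4 always-listed regions near Pf4, Ppbp and Gp9 each held at least 1 GATA match. Within the sequence of Gp9 -14.5 kb there were 2 GATA matches with an E-box match between them, 8 bases from the summit. Pf4 +3.3 kb and Ppbp -26.3 kb held GATA, ETS and RUNX matches together. Itga2b +2.6 kb held no match to any of the 6 motifs and was 68.2% G and C, against a median of 52.7% over the distal regions in all 10 libraries. The 2 gained regions held no GATA match, and Itgb3 -17.7 kb held a CTCF match 49 bases from its summit. No matches overlapped in the printed windows, although 2 pairs overlapped in the window of a region near Cxcl5.

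For comparison, the 250 bases before the annotated start of Pf4, Itga2b and Gp9 are shown from RefSeq (GRCm38.p6), on the strand of the gene. No library listed a summit in any of these bases.
Pf4 upstream, chr5:90772185-90772434, plus strand: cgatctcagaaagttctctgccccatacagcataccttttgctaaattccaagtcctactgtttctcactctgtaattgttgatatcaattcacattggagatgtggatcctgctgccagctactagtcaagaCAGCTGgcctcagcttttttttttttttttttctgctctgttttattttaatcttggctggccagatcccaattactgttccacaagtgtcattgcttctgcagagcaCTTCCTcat
Itga2b upstream, chr11:102469884-102470133, minus strand: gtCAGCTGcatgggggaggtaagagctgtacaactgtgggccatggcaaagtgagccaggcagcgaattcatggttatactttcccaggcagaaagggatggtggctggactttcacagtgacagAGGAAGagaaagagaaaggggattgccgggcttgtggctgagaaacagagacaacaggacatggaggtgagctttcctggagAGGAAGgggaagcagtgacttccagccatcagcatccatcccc
Gp9 upstream, chr6:87777820-87778069, plus strand: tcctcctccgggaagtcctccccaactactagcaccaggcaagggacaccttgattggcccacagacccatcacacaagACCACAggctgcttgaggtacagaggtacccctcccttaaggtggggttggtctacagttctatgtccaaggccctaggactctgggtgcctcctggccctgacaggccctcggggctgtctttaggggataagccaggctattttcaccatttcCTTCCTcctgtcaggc

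The RefSeq windows from 250 bases before to 50 after the start matched 5 of the 8 members (Pf4, Ppbp, Itga2b, Gp9 and Gp1bb). A GATA match was found in 1 of these 5, after the start of Pf4, against 18.6% of 32851 promoter windows. ETS matches were found in 4 of 5, against 46.5% of windows, and E-box matches in 4 of 5, against 30.6%. RUNX matched in 1 of 5, against 16.8%, AP-1 in 0 of 5, against 5.20%, and CTCF in 0 of 5, against 0.557%. A match describes letters and is not evidence of a bound site.

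The promoters of the 8 genes were not listed. In none of the 10 libraries did any of them have a summit within 1 kb of a protein-coding transcript start, at 0 h or at any time after β-estradiol. Over all protein-coding genes, 26.0% had such a promoter summit in all 10 libraries and 56.0% in none, so 8 of 8 absent stood beside a background in which absence was the more common state. With a limit of 2 kb, Gp9 was listed in 4 libraries and Itgb3 in 1, and still no member in all 10. A transcript start of a non-coding kind changed 1 gene. Itga2b +2.6 kb lay 51 bp from the start of a non-coding processed transcript of Itga2b, at position 102467199 of chromosome 11, and with every annotated start allowed Itga2b was listed in 10 libraries and each of the other 7 members in 0.

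**Figure D1:**
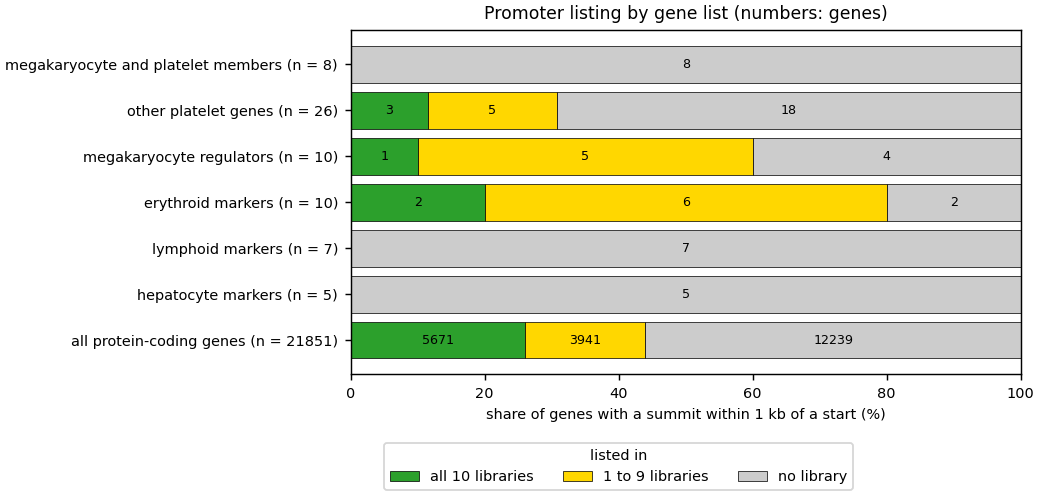
Share of genes (horizontal axis, percent) with a summit within 1 kb of a protein-coding transcript start in all 10 libraries, in 1 to 9, or in none, for each gene list and for all 21851 protein-coding genes; numbers in the bars are genes. The bar of the 8 members is wholly in the unlisted class, as are those of the lymphoid and hepatocyte markers, whereas 2 of 10 erythroid markers and 3 of 26 other platelet genes were listed in all 10 libraries.

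The genes differed widely in what lay around them. Gp9 had 6 regions in its window, Itga2b 8, Itgb3 5, Gp1bb 1, Vwf 1 and Thbs1 0, and Pf4 and Ppbp, which are neighbours on chromosome 5, shared the same 5. The mean number of summits per library was 4.9 for Gp9 and 4.7 for Itga2b, at or above 88.4% and 86.9% of protein-coding genes. It was 3.1 for Pf4 and for Ppbp, 2.2 for Itgb3, 0.2 for Gp1bb and 0.1 for Vwf, against a median of 1.6 over all genes. Windows include the gene span and so were longer for Vwf (239.9 kb) and Itgb3 (162 kb) than for Pf4 (101 kb). Of the 26 regions, 20 were distal (no summit within 1 kb of a start in the protein-coding set used) and 6 held the promoter of another gene. They were listed in all 10 libraries in 8 cases (30.8%), against 21.5% of all regions, in 2 to 9 libraries in 12 cases and in a single library in 6.

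**Figure D2:**
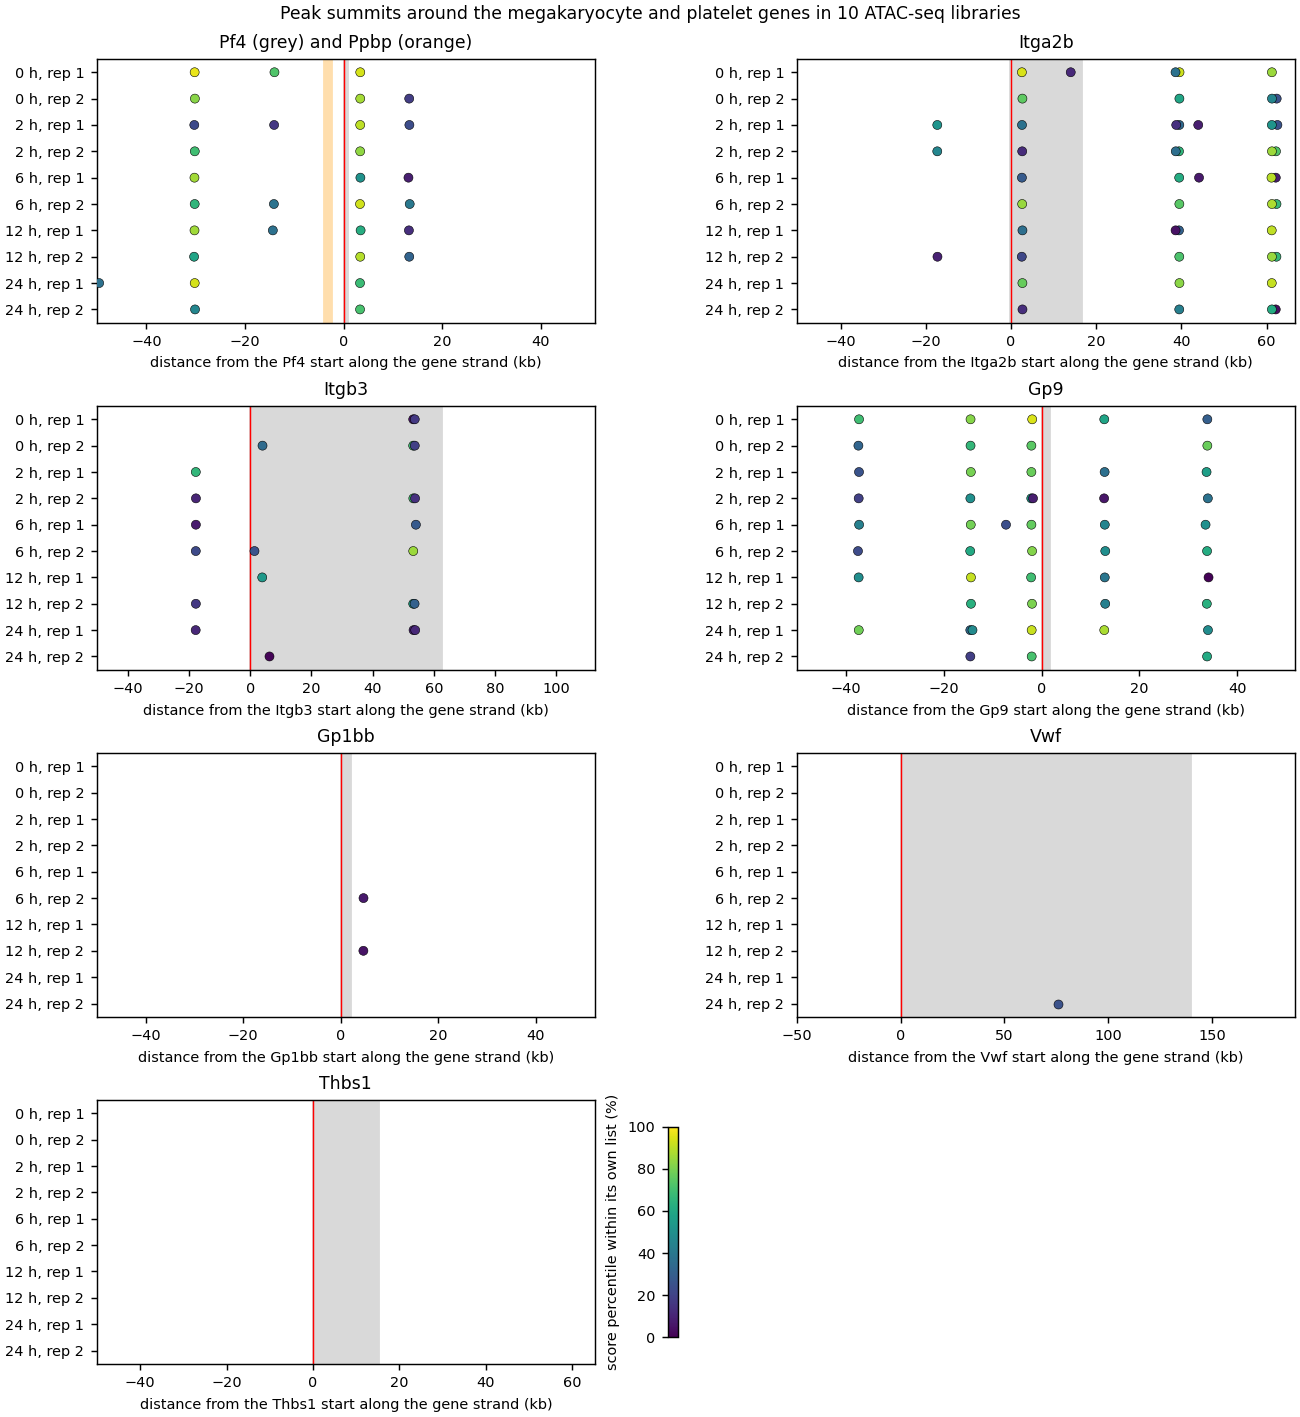
Position of every summit (points) in the window of each gene, with distance from the most upstream protein-coding start along the gene strand in kb on the horizontal axis and the 10 libraries on the vertical axis; grey or orange shading is the gene span, the red line the start, and colour the percentile of the score within its own list. Columns of 10 points are regions listed in every library, seen near Pf4, Gp9 and Itga2b, while the Gp1bb, Vwf and Thbs1 panels hold 2, 1 and 0 summits.

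Among the secreted chemokines, Pf4 (platelet factor 4, chr5:90772435-90773383, plus strand) had an open region just beyond its end in every library. Pf4 +3.3 kb was intergenic, 3.27 to 3.39 kb from the start. Its score stood at the 93.6 and 86.4 percentiles of the 2 lists at 0 h, 90.2 and 83.3 after 2 h, 50.8 and 92.8 after 6 h, 62.2 and 89.0 after 12 h, and 68.2 and 70.9 after 24 h, replicate 1 first. All 10 values were in the upper part of their lists, the lowest being that of 6 h replicate 1. Within-list percentiles also move with the length of a list, which is why rank among the always-listed regions is used further on.

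Ppbp (pro-platelet basic protein, the precursor of CXCL7, chr5:90768518-90770063, plus strand) shared these regions, and its nearest summit in any library was that of Pf4, 7.26 to 7.39 kb away. Upstream of it, Ppbp -26.3 kb was intergenic and listed in all 10 libraries. The score percentiles there were 96.8 and 82.4 at 0 h, 22.5 and 69.2 after 2 h, 86.1 and 65.6 after 6 h, 85.9 and 58.4 after 12 h, and 93.5 and 45.9 after 24 h. Replicate 1 was the higher library at every time except 2 h. The other 3 regions of this chemokine cluster were a single summit (Ppbp -45.7 kb) in 24 h replicate 1, a region next to Cxcl5 in 4 libraries and a region next to Cxcl3 in 6. Cxcl3 and Cxcl5 encode neutrophil-attracting chemokines, and neither was listed in both libraries of 24 h.

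Of the integrin genes, Itga2b (αIIb or CD41, chr11:102453297-102470122, minus strand) had more regions than Itgb3. Itga2b +2.6 kb lay in an intron of the coding transcript. It stood at the 93.8 and 75.2 percentiles at 0 h, 37.9 and 12.2 after 2 h, 28.2 and 84.5 after 6 h, 36.0 and 21.5 after 12 h, and 76.6 and 12.9 after 24 h. The 0 h libraries were the highest but for 6 h replicate 2 and 24 h replicate 1, both of which exceeded 0 h replicate 2. Itga2b +14.0 kb, on a non-coding exon of the gene, was listed in 0 h replicate 1 alone.

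The other regions of the Itga2b window belonged largely to its downstream neighbours. Itga2b +39.5 kb held the promoter of Grn, which encodes the growth factor precursor progranulin, and was listed in all 10 libraries, while Itga2b +38.7 kb, also within 1 kb of a Grn start, was listed in 4. The promoter of Slc25a39, a mitochondrial carrier gene, was listed in 7 libraries, and Itga2b +61.3 kb in all 10. The latter lay 676 bp from a further protein-coding Slc25a39 start. That start is outside the protein-coding set used, so the region was classed as distal. Itga2b +61.3 kb was the distal region of the window with the highest median percentile, 85.1, from 45.6 in 0 h replicate 2 to 91.2 in 24 h replicate 1. Upstream of Itga2b the window held Itga2b -17.3 kb, in an intron of Gpatch8, in 3 libraries.

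Itgb3 (β3 or CD61, chr11:104608000-104670476, plus strand), whose product pairs with αIIb, had no region in all 10 libraries. Itgb3 +53.5 kb, in an intron of the gene, was listed in 7. Its percentiles were 16.7 and 68.9 at 0 h, 70.3 in 2 h replicate 2, 27.8 and 84.9 at 6 h, 58.0 in 12 h replicate 2 and 11.0 in 24 h replicate 1. Replicate 2 was the higher library wherever the region was called in both. Its summits were spread over 879 bp, so that more than 1 site may be merged in it, and 3 other intronic regions of Itgb3, 1.4, 4.0 and 6.3 kb from the start, were listed in 1, 2 and 1 libraries.

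The von Willebrand factor receptor genes Gp9 and Gp1bb differed most in how many regions they had. Gp9 (chr6:87778072-87779768, plus strand) had 3 regions in all 10 libraries and 2 more in 8 of 10. Gp9 -2.0 kb, intergenic and 106 bp from the start of the long non-coding RNA gene Gm43904, was the closest, with percentiles of 94.3 and 74.3 at 0 h, 77.0 and 55.3 after 2 h, 76.1 and 81.4 after 6 h, 69.5 and 80.4 after 12 h, and 91.8 and 70.9 after 24 h. The lowest of the 10 was that of 2 h replicate 2. Gp9 -14.5 kb, also intergenic, ran from 91.0 in 12 h replicate 1 to 18.6 in 24 h replicate 2, and the 24 h libraries, at 47.6 and 18.6, were its lowest. The third always-listed region, Gp9 +33.8 kb, held the promoter of Rab43, a small GTPase gene.

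The 2 regions of Gp9 in 8 libraries were missing in different ones. Gp9 -37.4 kb, in an intron of Efcc1, was not called in 12 h replicate 2 and 24 h replicate 2. Gp9 +12.9 kb, on an untranslated exon part of Rab43 and Gm45140, was not called in 0 h replicate 2 and 24 h replicate 2. The shortest of all lists was that of 24 h replicate 2. By contrast, Gp1bb (chr16:18620317-18622403, minus strand), which encodes the β chain of glycoprotein Ib, had 1 region, 3.9 kb downstream of its start, at the 6.79 percentile in 6 h replicate 2 and the 4.85 percentile in 12 h replicate 2. Outside those 2 libraries the nearest summit lay 74.2 to 123 kb from a Gp1bb start.

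The adhesive ligands had almost no open region. Vwf (von Willebrand factor, chr6:125546774-125686679, plus strand) had a single summit in its window, in an intron 69.5 kb from the nearest start and at the 25.1 percentile of 24 h replicate 2. Thbs1 (thrombospondin 1, chr2:118111876-118127133, plus strand) had none in any library, and its nearest summit was 88.2 kb away in 6 h replicate 2, the longest list, and about 277 kb away in the other 9. An empty window was found for 25.6% of protein-coding genes, so the empty window of Thbs1 was a common state.

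**Figure D3:**
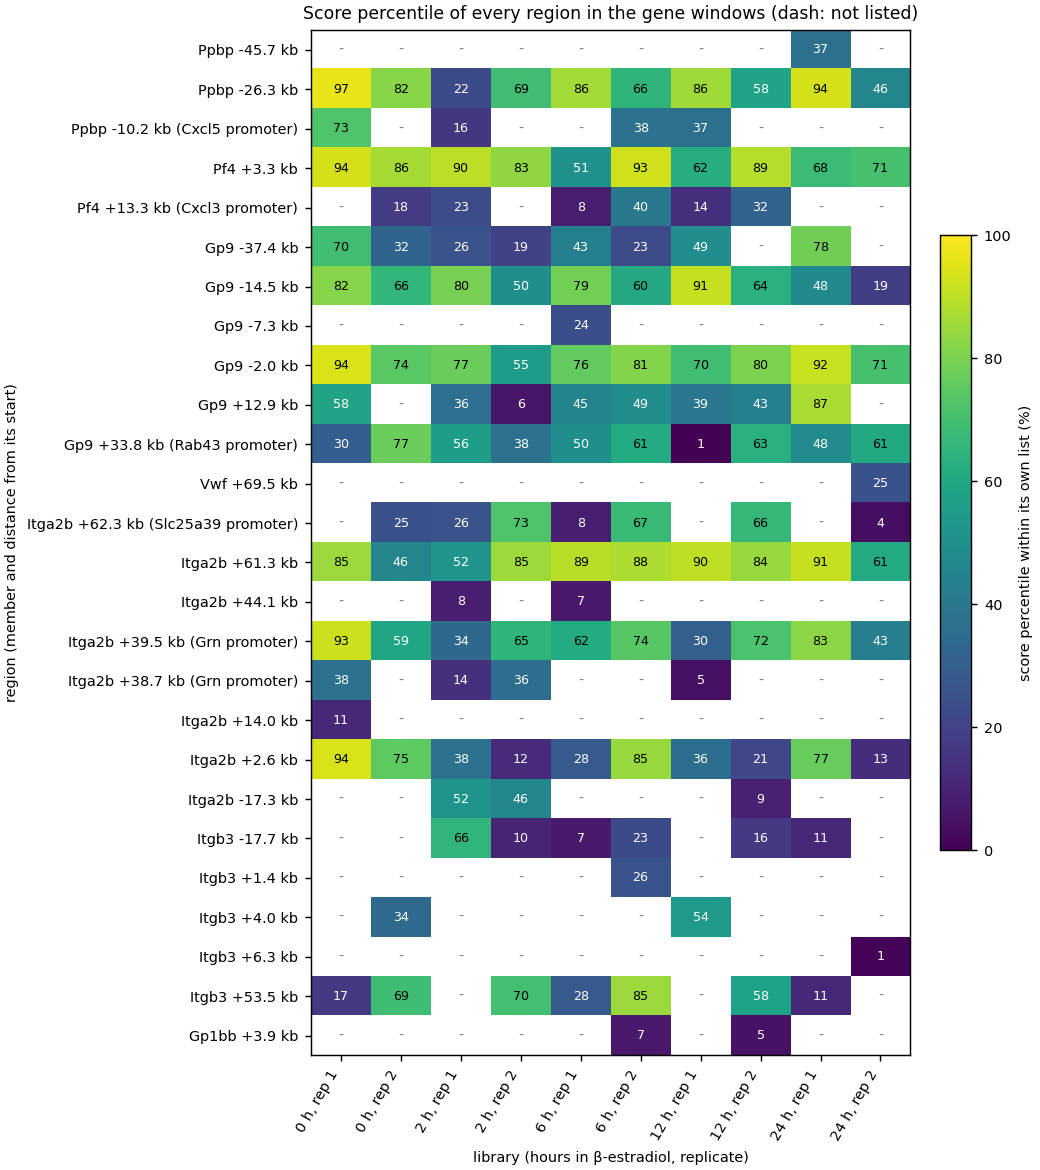
Percentile of the score within its own list (colour and number) for each of the 26 regions (rows, named by member and distance from its start) in each of the 10 libraries (columns); a dash marks a region not listed. The 8 filled rows are the always-listed regions, and the 2 gained regions, Itga2b -17.3 kb and Itgb3 -17.7 kb, are blank in both 0 h columns.

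On the full lists, with the main settings, 0 to 2 of the 26 regions were gained at each time after β-estradiol, and 0 were lost. Gained regions were those present in both libraries of a later time and absent from both at 0 h, and lost regions were the reverse. At 2 h, 2 of the 26 regions were gained, Itga2b -17.3 kb and Itgb3 -17.7 kb, while 2.67% of all 28981 regions were gained. Itgb3 -17.7 kb alone was gained at 6 h (background 4.08%), and at 12 h and 24 h there was no gain (background 2.47% and 1.71%). No region was lost at 2, 6, 12 or 24 h, with 1.15%, 0.759%, 1.88% and 3.51% of all regions lost. Counts of 0 to 2 among 26 are too small to be told apart from those shares. With 2 libraries against 2 an exact permutation test cannot go below a p of 0.33, so none was run.

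Neither gained region stayed listed in both libraries up to 24 h. Itga2b -17.3 kb was at the 51.9 and 46.0 percentiles at 2 h, in neither library at 6 h, at 9.19 in 12 h replicate 2, and in neither at 24 h. Itgb3 -17.7 kb, in an intron of the cardiac myosin light chain gene Myl4, was at 66.0 and 10.2 at 2 h, 7.36 and 22.6 at 6 h, 16.4 in 12 h replicate 2 and 11.3 in 24 h replicate 1. Most of these values were in the lower part of the list. When all lists were reduced by score to 10698 summits, the gain of Itgb3 -17.7 kb was not called at 2 h or 6 h (2.18% and 2.19% of all regions were then gained), that of Itga2b -17.3 kb at 2 h was, and Gp9 -37.4 kb was called lost at 2 h, as were 2.20% of all regions. Losing 1 library from a group moved the counts as well, to as many as 3 lost regions at 24 h without 0 h replicate 2 and 3 gained regions at 12 h without 12 h replicate 1.

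The number of summits in the 8 windows together was higher in both libraries of 2 h and 6 h than in either of 0 h on the full lists, but not on lists of equal length. It was 15 and 14 at 0 h, 17 and 17 after 2 h, 16 and 17 after 6 h, 14 and 16 after 12 h, and 15 and 11 after 24 h. The means exceeded that of 0 h by 2.5 after 2 h, 2 after 6 h and 0.5 after 12 h, and after 24 h the mean fell by 1.5. With lists of equal length the libraries had 11 and 14 at 0 h, 9 and 11 after 2 h, 11 and 11 after 6 h, 10 and 12 after 12 h, and 12 and 11 after 24 h, which turned the differences at 2, 6 and 12 h to -2.5, -1.5 and -1.5. The full lists held 15258 and 11698 summits at 0 h, 16115 and 14275 after 2 h, and 14211 and 19859 after 6 h. Without 24 h replicate 2 the 24 h difference was 0.5, and without 12 h replicate 2 the 12 h difference was -0.5.

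Changes in strength were examined in the regions that were always listed. There were 6234 regions in all 10 libraries, and the score of each was ranked among them within a library, from 0% to 100% at the highest score, which removes the effect of list length. At Itga2b +2.6 kb the rank was 85.1% and 57.7% at 0 h, 8.34% and 1.21% after 2 h, 6.75% and 53.5% after 6 h, 9.33% and 2.61% after 12 h, and 49.6% and 3.56% after 24 h. Every later library was below both 0 h libraries. This held at all 4 times for 1 of the 8 regions in the windows and for 2.01% of the 6234, and the 4 comparisons share the 0 h libraries. The lowest mean ranks were those of 2 h and 12 h, and at 6 h and 24 h the 2 libraries lay far apart. The rank is that of a peak score, and no difference at this region passed the test given below. Were there a change, fewer cells with the region open and less opening per cell could not be told apart in bulk libraries.

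At Ppbp -26.3 kb the rank was 92.3% and 69.1% at 0 h, 3.31% and 38.9% after 2 h, 70.0% and 14.9% after 6 h, 67.5% and 23.5% after 12 h, and 84.3% and 23.7% after 24 h. The later libraries overlapped the 0 h pair at 6 h and 24 h, but each was below the 0 h library of its own replicate number at every time. Pf4 +3.3 kb had ranks of 84.6% and 75.6% at 0 h, 75.5% and 63.7% after 2 h, 19.9% and 77.2% after 6 h, 29.7% and 76.0% after 12 h, and 36.9% and 52.8% after 24 h. Both 24 h libraries were below both 0 h libraries there, as were both 2 h libraries by a small margin.

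The Gp9 regions varied separately. Gp9 -2.0 kb had ranks of 86.4% and 56.3% at 0 h, 48.0% and 21.6% after 2 h, 51.7% and 45.1% after 6 h, 39.3% and 58.4% after 12 h, and 80.2% and 52.8% after 24 h. It was below 0 h without overlap at 2 h and 6 h, and at 12 h and 24 h the libraries overlapped the 0 h pair, with 1 of the 2 below it each time. Gp9 -14.5 kb had ranks of 59.9% and 45.3% at 0 h, and both 24 h libraries, at 15.6% and 5.92%, were below them, whereas the ranks at 2 h (52.8% and 16.5%), 6 h (56.4% and 9.87%) and 12 h (78.7% and 30.7%) overlapped those of 0 h. Within replicate numbers it was below 0 h at 2, 6 and 24 h. The 3 remaining regions, at the promoters of Rab43 and Grn and near Slc25a39, had median ranks of 17.6%, 32.0% and 66.2%.

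**Figure D4:**
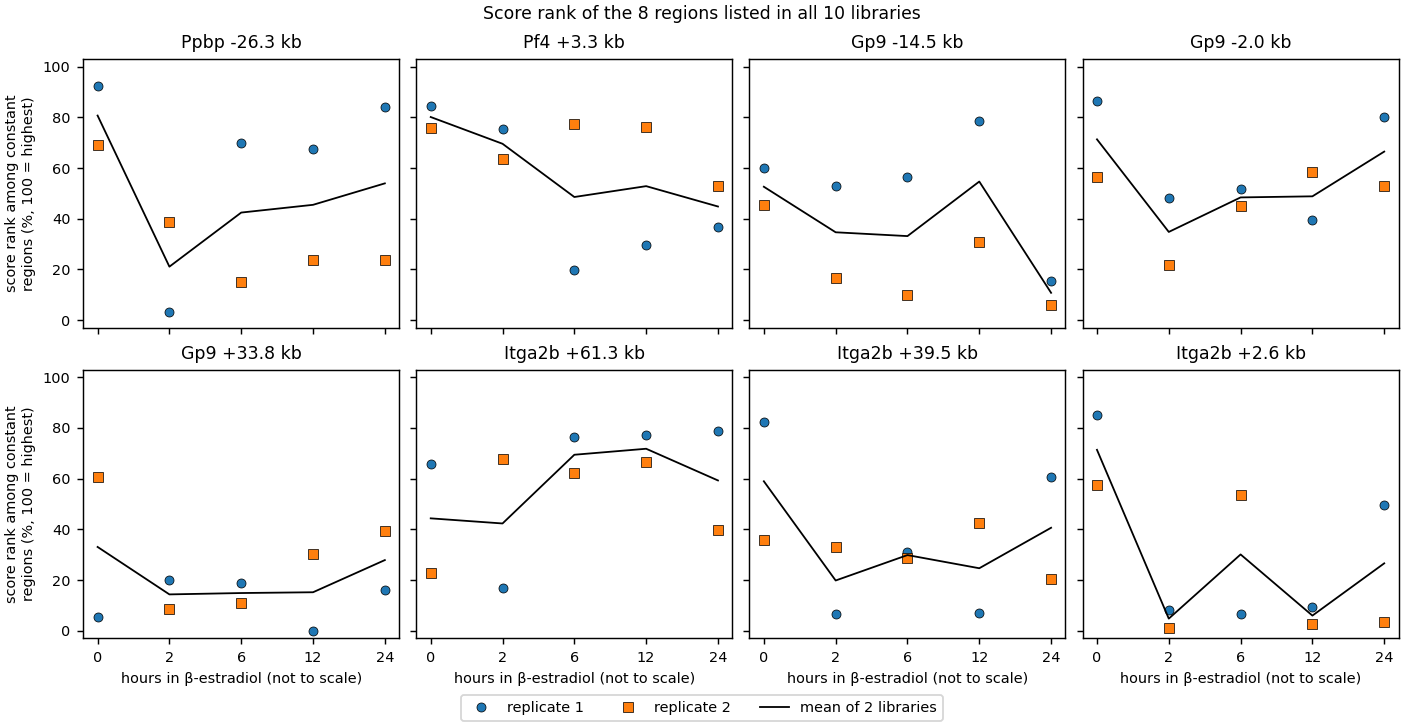
Rank of the score among the 6234 always-listed regions (vertical axis, percent, 100 the highest) at each time in β-estradiol (horizontal axis, hours, not to scale) for the 8 such regions in the windows; circles are replicate 1, squares replicate 2 and the line their mean. Itga2b +2.6 kb falls from 85.1% and 57.7% at 0 h to 8.34% and 1.21% at 2 h, and its 2 libraries at 24 h are at 49.6% and 3.56%.

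Taking the 8 regions by count, both libraries were below both 0 h libraries for 5 at 2 h (background 14.7% of 6234), 3 at 6 h (14.5%), 2 at 12 h (14.0%) and 3 at 24 h (14.6%). Both were above for 0 at 2 h (14.2%), 0 at 6 h (14.2%), 1 at 12 h (14.1%), which was Itga2b +61.3 kb, and 0 at 24 h (15.2%), and none of the 8 was above at all 4 times (2.10%). The 5 regions at 2 h were Ppbp -26.3 kb, Pf4 +3.3 kb, Gp9 -2.0 kb, Itga2b +39.5 kb and Itga2b +2.6 kb. All 5 rest on the same 4 libraries and are not independent of each other.

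The replicate numbers pair the libraries, so each later library was also set against the 0 h library of its own number, a reading added after the data were seen. Both numbers were below for 6 of the 8 at 2 h (background 25.1%), 5 at 6 h (25.1%), 3 at 12 h (25.6%) and 6 at 24 h (25.4%). Both were above for 0 at 2 h (24.5%), and for Itga2b +61.3 kb alone at 6 h (24.6%), 12 h (24.8%) and 24 h (25.5%). Ppbp -26.3 kb and Itga2b +2.6 kb, 2 of the 8, were below at all 4 times, against 4.81% of the 6234, and 0 of 8 were above at all 4, against 4.83%. The times share the 0 h libraries, and no test was made on these counts.

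No single region passed the test. In limma on the normal score of the rank, with all 10 libraries in one fit, 0 of the 6234 regions were called at any of the 4 times at a Benjamini-Hochberg adjusted p of 0.05, a background of 0%. At an unadjusted p under 0.05 there were 198 regions after 2 h, 173 after 6 h, 193 after 12 h and 260 after 24 h. Each of these counts was below 0.05 of the 6234 regions, the share to be met where nothing differs. For Itga2b +2.6 kb the difference from 0 h on the normal-score scale was -2.44 (SE 0.705, limma unadjusted p = 0.00343, adjusted p = 1) after 2 h, -1.32 after 6 h, -2.25 after 12 h and -1.52 after 24 h. Ppbp -26.3 kb differed by -2.02 (SE 0.760, limma adjusted p = 1) at 2 h and Gp9 -14.5 kb by -1.35 (SE 0.650, limma adjusted p = 1) at 24 h. A missed threshold with 2 libraries per group does not show that the ranks were equal, since the median standard error was 0.603. These values are from the fit without the replicate number as a block. With the block, limma gave SE 0.636 (adjusted p = 0.674) for Itga2b +2.6 kb at 2 h. It gave SE 0.656 (adjusted p = 0.753) for Ppbp -26.3 kb at 2 h and 0.488 (adjusted p = 0.503) for Gp9 -14.5 kb at 24 h.

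Although their promoters were not listed, several of the genes had an always-listed region close by. The distance from the start to the nearest such region was 2.03 kb for Gp9, 2.63 kb for Itga2b, 3.31 kb for Pf4 and 7.31 kb for Ppbp. It was 57.4 kb for Itgb3, 123 kb for Gp1bb, 277 kb for Thbs1 and 331 kb for Vwf. Within 5 kb, 3 of the 8 had one, against 2.27% of the 12239 protein-coding genes with no listed promoter, and within 10 kb 4 of 8, against 5.01%. These limits were set after the distances were seen, Pf4 and Ppbp share a region, and no test was made. Itga2b +2.6 kb and Gp9 -2.0 kb lay 51 and 106 bp from non-coding transcript starts. Some unlisted genes of other lists also had a close summit in every library, though most did not. Examples were Alas2 (2.25 to 2.46 kb), Fgb, a hepatocyte marker (5.45 to 5.59 kb), and Tbxa2r, a platelet gene (7.97 to 8.17 kb).

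**Figure D5:**
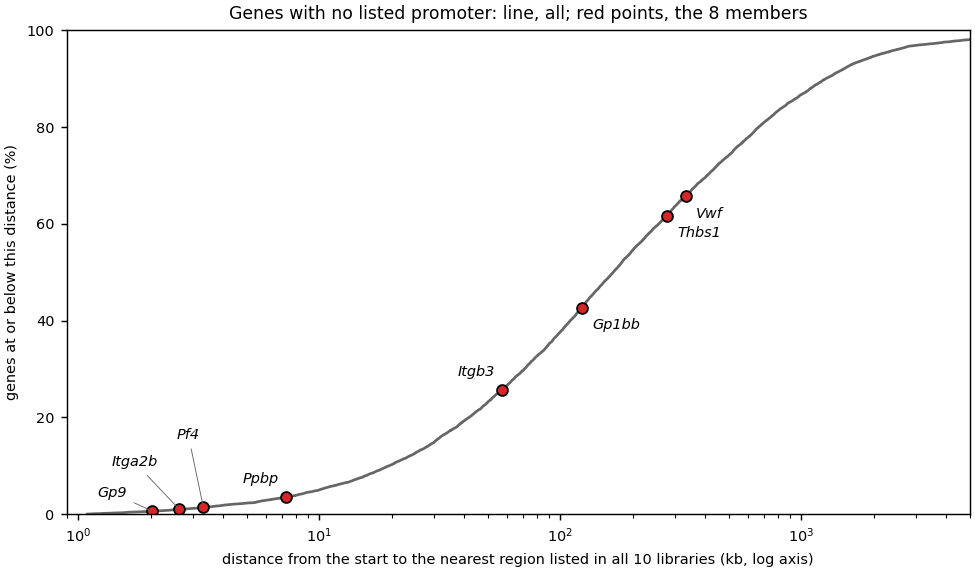
Cumulative share of the 12239 protein-coding genes with no listed promoter (vertical axis, percent) by distance from the start to the nearest region listed in all 10 libraries (horizontal axis, kb, log scale); red points place the 8 members on that curve. Gp9, Itga2b, Pf4 and Ppbp lie at its lower left, within 10 kb, while Gp1bb, Thbs1 and Vwf lie beyond 100 kb.

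Motif matches were counted in the distal regions and set beside their shares over the genome. The 6 distal regions in all 10 libraries included Itga2b +61.3 kb, near a Slc25a39 start outside the set used. Of these 6, 4 held a GATA match in the central 201 bases. The share was 46.9% of the 1291 distal regions listed in all 10 libraries over the genome. RUNX matches were found in 3 of 6 (18.9% over the genome), ETS in 2 of 6 (38.3%), E-box in 2 of 6 (29.1%), AP-1 in 0 of 6 (6.74%) and CTCF in 0 of 6 (2.01%). Over all 20 distal regions 9 held GATA, against 38.8% of 19298, and 6 held RUNX, against 20.5%. Numbers of this size describe these loci and were not tested.

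Neighbouring genes had listed promoters in part. Of 14 other protein-coding genes with a start in the windows, Rab43 and Grn were listed in all 10 libraries, Slc25a39 in 7, Cxcl3 in 6, Cxcl5 in 1 and 9 in none. The always-listed share was 14.3%, beside the 26.0% of all genes, and was not tested. Cxcl15, near Pf4, and Tbx1 and Sept5, near Gp1bb, were among the unlisted.

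A longer list of platelet genes held both listed and unlisted promoters. Of 26 further genes, 3 (11.5%) were listed in all 10 libraries, against 26.0% of all genes, 5 in some, and 18 (69.2%) in none, against 56.0%, among them Gp6 (the collagen receptor), Itga2 and Selp (P-selectin). The 3 were Gp1ba, the ligand-binding chain of glycoprotein Ib, P2ry1, an ADP receptor, and Nbeal2, needed for α-granules. Of the GPIb-IX-V genes Gp1ba was always listed, Gp5 was listed in 4 libraries, and Gp1bb and Gp9 were in none. Plek (pleckstrin) was listed in 3 libraries and Tbxas1 (thromboxane synthase) in 3, and each shares its start region with another gene, Cnrip1 and Hipk2.

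Of the 26 promoters in this list, 1 was gained at 2 h, 2 at 6 h and 1 at 12 h. Rgs18, a regulator of G protein signalling in platelets, was unlisted in both 0 h libraries, at the 68.6 and 43.8 percentiles after 2 h, 6.26 and 63.6 after 6 h, 36.8 and 51.3 after 12 h, and 44.0 in 24 h replicate 1. It was therefore gained at 2, 6 and 12 h, when 0.641%, 1.03% and 0.723% of all promoters were. P2rx1, an ATP-gated channel, was listed in the 2 libraries of 6 h alone, at the 8.48 and 22.8 percentiles. No promoter of the list was gained at 24 h (background 0.467%), and none was lost at 2, 6, 12 or 24 h (background 0.352%, 0.0503%, 0.320% and 0.526%). With shares that small, 0 losses among 26 genes do not set the list apart.

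Of 10 transcription factors that act in megakaryocytes, 6 had a promoter summit in at least 1 library, against 44.0% of all protein-coding genes. Zfpm1, which encodes the GATA1 partner FOG1, was listed in all 10, Runx1 and Etv6 in 8, Nfe2 in 7, Gfi1b in 4 and Tal1 in 2, and Fli1, Mef2c, Meis1 and Gata2 in none. Gfi1b, a repressor needed in both lineages, was gained at 6 h (background 1.03%), at the 36.7 and 22.8 percentiles, and was also listed in 2 h replicate 1 and 12 h replicate 1. Among the erythroid markers Ermap, which encodes an erythroblast membrane protein, was gained at 6 h, at the 7.12 and 27.1 percentiles, and at 24 h (background 0.467%), at 9.42 and 11.2. Ank1 (ankyrin 1, of the red cell skeleton) stood at the 10.5 and 23.0 percentiles at 0 h. It was lost at 2 h (background 0.352%) and 12 h (0.320%). Between these times it was listed in both 6 h libraries, at the 52.4 and 0.0352 percentiles, and later in 24 h replicate 1, at 20.6. Apart from the 52.4 of 6 h replicate 1, the Ermap and Ank1 values given are low positions in the lists.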

How the data were processed

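The 10 ATAC-seq libraries came from G1E-ER4 cells at 5 time points and were grouped and numbered by their titles. Reads with a unique position in mm10 were kept by the authors, and peaks were called with MACS2 in each library alone, without a fragment model. The submitters' processing notes name Bowtie 1.0.0 and Picard, whose role is not stated, while the methods name Bowtie2, so the aligner is not settled. A Tn5 shift of reads is not given in the sources used here, which leaves a summit uncertain by a few bases or more. The deposited lists give 1-bp summits and a score, the −log10 of the q-value of each peak in its own library (lowest 1.30, a q-value of 0.0499). They hold no read counts, so depth is unknown and no interval that needs it is given.

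Summits on chromosomes 1 to 19, X and Y were used, leaving out 4 or 5 mitochondrial summits per list. Each was extended by 250 bp on both sides to 501 bp, and overlapping windows of all lists were merged. Replicate pairs shared 56 to 92 summit positions, so no pair held the same list. Starts were the 41438 of 21851 protein-coding genes in GENCODE M21 (basic set), and a promoter was listed when a summit lay within 1 kb. Score ranks of regions in all 10 libraries were compared by limma 3.58.1 (R 4.3.3) with Benjamini-Hochberg adjustment over 6234 regions, and the procedure was tested on simulated data. Other steps used Python 3.11.15 and pandas 2.3.3.

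Alternatives were a minimum score of 2, lists of equal length, other summit extensions and promoter limits, another score scale, other moderation, a replicate block and leaving out each library. Counts within replicate numbers were added after the data were seen. The same replicate numbers deviated together at all 10 pairs of time points (r from 0.177 to 0.359 over the 6234 regions), so the numbers pair the libraries, from the data and not from a label. The members and all gene lists were chosen with earlier results of these data known. Named regions were those gained or lost and, for each member, the distal region in most libraries (ties by median percentile). Other regions of the windows, including the rest of the always-listed ones, were named after their values were seen. Genes of other lists were named when gained or lost, otherwise as examples. Sequences came from the GRCm38.p6 genome, and 0 summits lay beyond its chromosome ends.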

Additional observations from a re-analysis of the deposited data

How the results depend on the processing

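The count of 0 member promoters listed in all 10 libraries was unchanged under every alternative run for it, as was the count of 0 regions called by limma. With a promoter limit of 2 kb, Gp9 and Itgb3 were no longer unlisted throughout. A minimum score of 2 and an extension by 500 bp left every count of gained and lost regions within 1.5 times. With lists of equal length, 1 region was gained at 2 h and 0 at 6 h, 1 was lost at 2 h, and the summits in the windows differed from 0 h by -2.5 at 2 h, -1.5 at 6 h and -1.5 at 12 h, since fewer summits were kept. With summits extended by 100 bp, 1 region was lost at 6 h, and Gp9 +33.8 kb was no longer in all 10 libraries and gave no rank. With 1 library left out, gained regions ranged from 2 to 4 at 2 h, 2 to 3 at 6 h, 0 to 3 at 12 h and 0 to 2 at 24 h, and lost regions from 0 to 1 at 2 h, 0 to 2 at 6 h, 0 to 1 at 12 h and 0 to 3 at 24 h, because 1 library then decides a call. Without 0 h replicate 1 there were 4 gained and 1 lost at 2 h, 2 gained and 1 lost at 6 h, 1 gained at 12 h and 2 lost at 24 h. Without 0 h replicate 2 there were 1 lost at 2 h, 3 gained and 2 lost at 6 h, 1 gained and 1 lost at 12 h and 3 lost at 24 h. Without 2 h replicate 2 there was 1 lost at 2 h, and with either 6 h library left out there were 3 gained at 6 h. Without 12 h replicate 1 there were 3 gained and 1 lost at 12 h, without 12 h replicate 2 there was 1 lost, without 24 h replicate 1 there were 2 gained and 2 lost at 24 h, and without 24 h replicate 2 there were 2 gained. The 4 omissions of a 0 h or 24 h library are those that can move the rank difference at 24 h, and its sign held in all 4 for Pf4 +3.3 kb (-1.19 to -0.79), Gp9 -14.5 kb (-1.63 to -1.08) and Itga2b +2.6 kb (-2.42 to -0.63), and for the other 5 regions it did not; a group left with 1 library was assumed to vary like the others. With the replicate block, 0 of 6234 regions were called at every time, 371, 337, 365 and 467 had an unadjusted p under 0.05 at 2, 6, 12 and 24 h, against 198, 173, 193 and 260 without it, and no call changed. With the block each of these counts was above a share of 0.05 of the 6234 regions, and without it each was below. The unknown depth limits every statement on an unlisted region.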
